A study of Homo sapiens with 20 samples.

Results

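The genes of cholesterol and fatty acid synthesis, with the sensing, transport and liver X receptor (LXR) genes tied to them, were followed through nickel exposure in BEAS-2B, an immortalised human bronchial epithelial line. Of the 25411 genes in each count file 40 were taken by symbol from a named set, all 40 had a row, and all 40 passed the filter on low counts. They comprise 20 sterol synthesis genes (8 of the mevalonate pathway, 3 of squalene and lanosterol, 9 from lanosterol to cholesterol), 5 of sterol sensing, 3 of sterol transport, 9 of fatty acid synthesis and 3 LXR targets. The 20 libraries were made from total RNA and fall into 7 groups.

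The clone group, Ni_clone, holds 6 libraries, each from a colony picked after a 6-week exposure and grown out in medium without nickel, so each library stands for 1 clone. The labels write the nickel chloride dose of the clones as 100 mM, a unit that may have lost a micro sign and could not be checked here, and speak otherwise of various concentrations. Ni_6W+2W (n = 2) are cells kept for 2 weeks without nickel after the 6-week exposure, Ni_6W (n = 2) are cells at its end, and Control_6W (n = 2) are their controls. Ni_3D+14D (n = 2) carries the label of a 3-day exposure plus 14 days, for which the labels state no medium, Ni_3D (n = 2) is the 3-day exposure and Control_3D (n = 4) its controls. Separate cultures are not mentioned in the labels. The p-values below therefore rest on the spread among these libraries, and that spread may be technical.

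Cholesterol is built from acetyl-CoA through mevalonate, squalene and lanosterol. Its genes, and those of fatty acid synthesis, are targets of the sterol regulatory element-binding proteins (SREBP), transcription factors made as membrane proteins of the endoplasmic reticulum. SCAP escorts SREBP to the Golgi for cleavage when membrane cholesterol is low, and INSIG proteins hold the complex back when it is high. LXR, activated by oxidised sterols, raises cholesterol export genes such as ABCA1. In the lung these routes are known for the lipid of surfactant, made by alveolar type II cells.

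Total reads per library ran from 8609243 to 88848786. The cells had the keratins KRT8 (186 to 836 CPM, read counts scaled to library size with TMM factors) and KRT18 (134 to 388 CPM) in all 20 libraries, but the basal keratin KRT5 stood at 0 to 4.04 CPM. The epithelial cadherin CDH1 was at most 2.05 CPM in 18 libraries, so that defining epithelial marker was almost absent. Ni_3D replicate 1 and Control_3D replicate 1 stood apart: 10 oestrogen receptor and luminal genes summed to 211 and 103 CPM there, against 9.44 to 57.5 CPM in the other 18. ESR1, the oestrogen receptor, had 10.7 and 3.52 CPM in these libraries and 0 in the rest, and CDH1 had 29.1 and 11.4 CPM. Control_3D also split: replicates 1 and 2 had 155 and 167 CPM of SREBF1, replicates 3 and 4 had 331 and 463 CPM. By chi-square per degree of freedom on the counts, Control_6W replicate 1 was among the libraries closest to Control_3D replicates 3 and 4 (11.6 and 13.9). For Ni_3D and Ni_3D+14D against Control_3D, and Ni_3D+14D against Ni_3D, sterol medians and most calls are given with and without these libraries. Leaving out both with oestrogen receptor transcripts leaves Ni_3D replicate 2 alone in its group, so such fits borrow the spread of other groups. Vimentin, VIM, had 1528 to 4270 CPM. Defining genes of blood, vessel, fat and liver cells were near 0: PTPRC was at most 0.307 CPM, PECAM1 0.0892 CPM, ADIPOQ 0.0446 CPM and ALB 0.0669 CPM.

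Promoter windows from RefSeq (GRCh38.p14, 250 bases before to 50 after each start, 300 bases in all) were at hand for 35 of the 40 genes. ACAT2, ABCG1, FASN, FDFT1 and SQLE had none. The windows below belong to 3 sterol synthesis genes that rose in Ni_3D+14D against Ni_3D, and to INSIG1, the gene whose level varied most between libraries after ABCG1. Capitals mark CCAAT on either strand, the letters bound by NF-Y, a factor known to work beside SREBP. FDPS lies at chr1:155308616-155308915 on the plus strand, INSIG1 at chr7:155297628-155297927 on the plus strand, CYP51A1 at chr7:92134428-92134727 on the minus strand and IDI1 at chr10:1048837-1049136 on the minus strand. IDI1 has 3 windows, and the one with the most CCAAT matches is shown, a choice made after they were counted.
FDPS: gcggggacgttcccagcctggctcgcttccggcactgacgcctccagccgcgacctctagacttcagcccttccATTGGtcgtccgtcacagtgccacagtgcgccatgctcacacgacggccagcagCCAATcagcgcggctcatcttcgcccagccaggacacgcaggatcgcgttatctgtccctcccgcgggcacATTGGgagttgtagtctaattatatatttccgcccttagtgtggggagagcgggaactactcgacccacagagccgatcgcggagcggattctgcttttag
INSIG1: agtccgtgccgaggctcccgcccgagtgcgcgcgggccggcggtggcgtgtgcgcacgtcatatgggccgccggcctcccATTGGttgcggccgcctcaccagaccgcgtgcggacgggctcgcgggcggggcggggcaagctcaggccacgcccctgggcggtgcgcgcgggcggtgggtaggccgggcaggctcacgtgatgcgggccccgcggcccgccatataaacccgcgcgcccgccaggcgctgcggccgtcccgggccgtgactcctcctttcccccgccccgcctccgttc
IDI1: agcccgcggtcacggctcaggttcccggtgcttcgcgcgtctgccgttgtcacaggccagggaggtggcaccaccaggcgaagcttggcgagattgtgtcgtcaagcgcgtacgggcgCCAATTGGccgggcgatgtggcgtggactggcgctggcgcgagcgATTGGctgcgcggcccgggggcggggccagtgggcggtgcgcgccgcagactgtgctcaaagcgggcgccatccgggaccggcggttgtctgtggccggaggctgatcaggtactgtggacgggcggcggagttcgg
CYP51A1: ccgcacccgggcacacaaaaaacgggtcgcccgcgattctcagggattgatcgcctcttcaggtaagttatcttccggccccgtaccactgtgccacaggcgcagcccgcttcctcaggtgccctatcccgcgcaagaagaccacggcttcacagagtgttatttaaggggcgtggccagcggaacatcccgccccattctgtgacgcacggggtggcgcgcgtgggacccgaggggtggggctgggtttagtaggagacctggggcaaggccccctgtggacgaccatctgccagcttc

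CCAAT stood in 16 of 24 windows of sterol synthesis genes (66.7%), against 34.1% of the 15629 windows of all genes tested. The FDPS window holds 3 matches, the IDI1 window 3, the INSIG1 window 1 and the CYP51A1 window 0. The GC box GGGCGG, the letters of SP1, stood in 83.3% of sterol synthesis windows and 65.3% of all windows tested, and the E-box CACGTG in 12.5% and 9.11%. A strict sterol regulatory element, searched on both strands as TCACNCCAC, stood in 0 of the 24 windows and in 1.09% of all windows tested. Among the 51 windows of all members it was found in 1, that of SREBF2, the gene of SREBP-2 itself. That match is shown with 6 bases on each side, from the window chr22:41832855-41833154 on the plus strand, with the element in capitals.
SREBF2: gcgccaTCACCCCACgcaccg

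Per kilobase, the most abundant members were FDPS, which makes farnesyl diphosphate (median of 136 RPKM over the 20 libraries), ACLY, the source of cytosolic acetyl-CoA (125 RPKM), and EBP, a sterol isomerase (92.0 RPKM). The LXR targets ABCA1 and ABCG1, sterol exporters, were the lowest, with medians of 1.41 and 1.04 RPKM. Levels between libraries varied most for ABCG1 (24.3-fold from lowest to highest CPM), INSIG1 (26.1 to 442 CPM), SCD (12.6-fold), HMGCS1 (12.2-fold) and MSMO1 (10.9-fold). They varied least for SCAP (1.49-fold) and ACLY (1.61-fold).

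The 20 sterol synthesis genes together stood at different levels in the groups. Their summed level was 1560 and 1801 CPM in Ni_6W+2W, 2114 and 2788 CPM in Ni_6W, and 1598 and 1462 CPM in Control_6W. It was 2661 and 2455 CPM in Ni_3D+14D, 1202 and 1235 CPM in Ni_3D, and 1704, 1565, 1627 and 1569 CPM in Control_3D. The sum was thus below its controls after 3 days of nickel, above them in Ni_3D+14D and after 6 weeks, and 1 of the Ni_6W+2W libraries lay between the 6-week controls. Of the 6 groups without the clones, Ni_3D had the lowest mean of 14 of the 20 genes (background over all genes tested 26.1%). Ni_6W had the highest mean of 9 (background 22.0%) and Ni_3D+14D of another 9 (background 7.17%). In such bulk samples fewer cells that express a gene and less RNA per cell cannot be told apart.

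**Figure D1:**
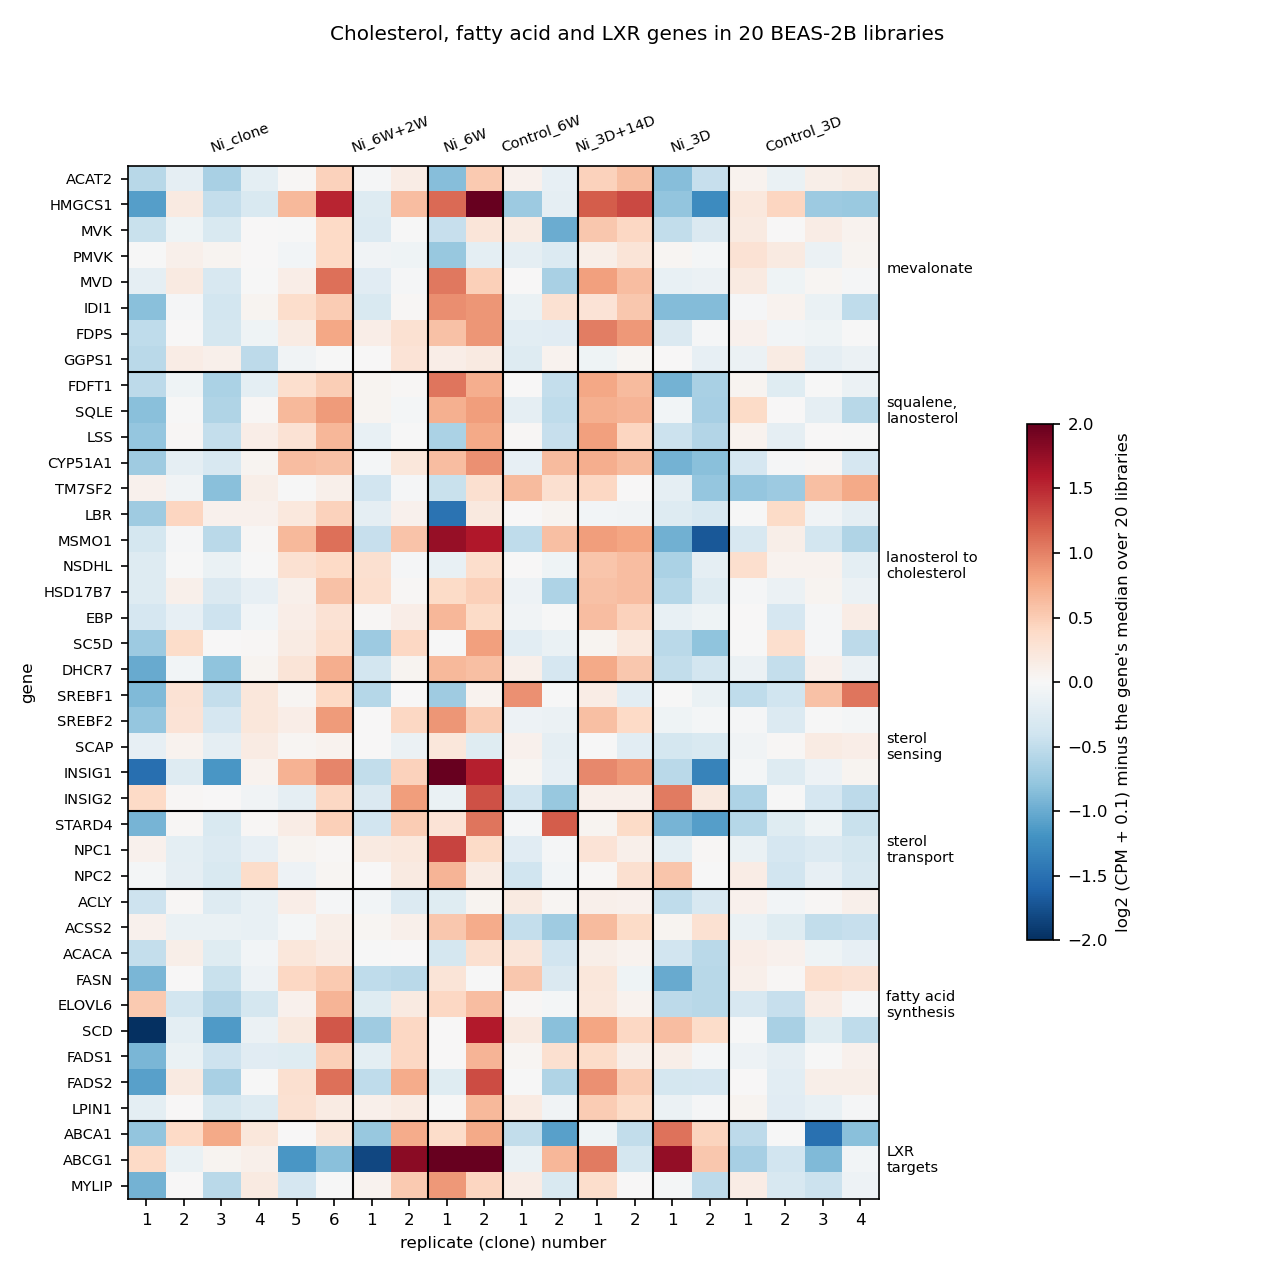
Log2 (CPM + 0.1) of the 40 genes (down, in order of role) in the 20 libraries (across, by group), minus each gene's median. The sterol synthesis genes are mostly blue in Ni_3D and red in Ni_3D+14D and Ni_6W, and clone 1 is bluer than clone 6.

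After 3 days of nickel, sterol synthesis genes stood lower and the LXR exporters higher than in the controls, while 1 of the 40 members passed the test. FASN, fatty acid synthase, had 385 and 532 CPM in Ni_3D, against 835, 791, 980 and 952 CPM in Control_3D. Both nickel libraries lay below all 4 controls. FASN (hg19 chromosome 17 at 80036214 to 80056106) fell by 0.95 on the log2 scale (SE 0.24, adjusted p = 0.0437 by the quasi-likelihood test of edgeR, Benjamini-Hochberg over all 14927 genes tested, as for every adjusted p below). That is 1 of 40 members lower, a share near the background of 1.51%, and 0 of 40 higher, where it was 2.83%. Leaving out Control_3D replicate 2, 3 or 4, or either Ni_3D replicate, raised the adjusted p of edgeR to between 0.0753 and 0.217, with a log2 fold change of -1.21 to -0.75. Without both libraries that hold oestrogen receptor transcripts it was -0.78 and did not pass (adjusted p = 0.227 by edgeR).

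All 20 sterol synthesis genes had a negative log2 fold change in Ni_3D, with a median of -0.47, beside 0.03 over all genes tested, of which 48.2% were negative. In 12 of the 20 both Ni_3D libraries lay below all controls (background 18.5%), and 0 of 20 lay above. The median was -0.43 without both libraries with oestrogen receptor transcripts, -0.49 against Control_3D replicates 1 and 2, and -0.41 against replicates 3 and 4. None of the 20 passed the adjusted test in edgeR, and 6 were lower at an unadjusted p under 0.05 (background 11.3%). Of all 40 members 10 were lower and 4 higher at that p (background 13.1% higher). With DESeq2, 6 members were called lower, among them CYP51A1, MSMO1, FDFT1 and IDI1, and 2 higher, ACSS2 and ABCA1, where it called 6.69% of all genes lower and 6.44% higher.

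The sterol gene nearest to passing was FDFT1, squalene synthase, with 71.3 and 88.1 CPM in Ni_3D, against 143, 116, 138 and 127 CPM in Control_3D. Its groups did not overlap, with a log2 fold change of -0.71 (SE 0.19, adjusted p = 0.0504 by edgeR). IDI1, isopentenyl diphosphate isomerase, had 28.1 CPM in each Ni_3D library, against 50.3, 53.5, 46.6 and 36.1 CPM in Control_3D. It differed by -0.72 (SE 0.20, adjusted p = 0.0606 by edgeR), again without overlap. The largest difference among sterol genes was that of MSMO1, a methylsterol oxidase, with 16.1 and 9.66 CPM in Ni_3D, against 25.1, 34.1, 24.2 and 20.7 CPM in Control_3D. HMGCS1, the synthase that makes HMG-CoA, had 31.3 and 22.5 CPM in Ni_3D, against 62.5, 72.7, 32.7 and 32.4 CPM, so the split of the controls runs through its values as well.

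The sensing genes did not move together. INSIG1 had 50.9 and 29.2 CPM in Ni_3D, against 72.2, 62.3, 69.3 and 76.8 CPM in Control_3D (difference of -0.80 in log2, SE 0.32, adjusted p = 0.148 by edgeR). INSIG2, its relative in the same membrane, ran the other way, with 32.7 and 18.3 CPM in Ni_3D, against 10.3, 15.8, 12.6 and 11.0 CPM (1.04, SE 0.38, adjusted p = 0.118 by edgeR). Neither gene's groups overlapped. Without both libraries with oestrogen receptor transcripts INSIG1 differed by -1.26 and INSIG2 by 0.46. SREBF2 differed by 0.03 (SE 0.17).

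The LXR targets ABCA1 and ABCG1 were above all controls in both Ni_3D libraries. ABCA1 had 36.5 and 23.5 CPM in Ni_3D, against 11.9, 17.2, 6.08 and 9.60 CPM in Control_3D, a log2 fold change of 1.43 (SE 0.42, adjusted p = 0.0674 by edgeR). ABCG1 had 11.3 and 4.81 CPM, against 2.05, 2.50, 1.74 and 3.16 CPM (1.80, SE 0.71, adjusted p = 0.144 by edgeR). MYLIP, a ubiquitin ligase also driven by LXR, differed by -0.10 (SE 0.25). Without both libraries with oestrogen receptor transcripts the log2 fold changes were 1.09 for ABCA1 and 0.98 for ABCG1. Against Control_3D replicates 3 and 4 alone ABCA1 passed, with a log2 fold change of 1.95. These are the controls with the lower ABCA1 levels, and 7.95% of all genes were called in that fit. Against replicates 1 and 2 alone neither ABCA1 nor any other member was called, beside 0.813% of all genes.

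Fatty acid genes other than FASN went both ways after 3 days. SCD, the stearoyl-CoA desaturase, had 319 and 270 CPM in Ni_3D, against 206, 132, 175 and 147 CPM in Control_3D, above all controls at a log2 fold change of 0.84 (SE 0.40, adjusted p = 0.222 by edgeR). ACSS2, which makes acetyl-CoA from acetate, was also above all controls (0.51, SE 0.17, adjusted p = 0.0929 by edgeR). ACLY, ACACA, ELOVL6 and FADS2 lay below all controls, with log2 fold changes of -0.45 to -0.34, and none passed.

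Genes beside these routes were also read. Of 16 genes of fatty acid oxidation 2 fell in Ni_3D, CPT1A, the carnitine acyltransferase of the mitochondrial gate (-0.74, SE 0.19, adjusted p = 0.0459 by edgeR), and HADHB of the trifunctional protein (-0.71, SE 0.15, adjusted p = 0.0272 by edgeR). Of 8 lipid droplet genes 2 rose, the coat protein PLIN2 (0.70, SE 0.17, adjusted p = 0.0394 by edgeR) and HILPDA, an inhibitor of triglyceride lipase (2.17, SE 0.29, adjusted p = 0.00276 by edgeR). HILPDA had 98.7 and 35.4 CPM in Ni_3D, against 16.9, 13.4, 14.1 and 15.8 CPM in Control_3D. Without both libraries with oestrogen receptor transcripts, where Ni_3D keeps 1 library, HILPDA differed by 1.28. CPT1A differed by -0.85, HADHB by -0.84 and PLIN2 by 0.61 in that fit, where their calls were not kept. Of 18 other genes tied to SREBP, such as the site proteases MBTPS1 and MBTPS2 that cleave it, 0 passed in either direction and 14 had a negative log2 fold change (median -0.285). The 7 mesenchymal genes summed to 5570 and 5900 CPM in Ni_3D and to 7128 to 10080 CPM in Control_3D, and 1 of them, SPARC, fell (-1.75, SE 0.31, adjusted p = 0.0128 by edgeR, and -2.20 without both libraries with oestrogen receptor transcripts). Their part in the sterol gene result was not tested.

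In Ni_3D+14D the sterol synthesis genes stood above the 3-day controls, and 4 of them passed the test against the 3-day nickel cells. Against Control_3D 0 of the 14927 genes tested passed by edgeR (background 0% in both directions). Before adjustment 18 members were higher and 0 lower at p under 0.05 (background 2.60% higher and 1.51% lower). DESeq2 called 3 members higher, and 0.101% of all genes. The median log2 fold change of the 20 sterol genes was 0.61, beside 0.00 over all genes, and 19 were positive. It was 0.63 without both libraries with oestrogen receptor transcripts, 0.66 against Control_3D replicates 1 and 2, and 0.635 against replicates 3 and 4. In 15 both libraries lay above all 4 controls (background 11.6%). FDPS had 428 and 385 CPM in Ni_3D+14D, against 224, 203, 197 and 209 CPM in Control_3D (0.96, SE 0.15, adjusted p = 0.264 by edgeR). ACSS2 had 71.0 and 59.6 CPM, against 41.8, 38.6, 32.3 and 33.1 CPM (0.83, SE 0.17, adjusted p = 0.657 by edgeR). Neither gene's groups overlapped.

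Against Ni_3D, whose libraries also enter the 3-day comparison above, FDFT1, CYP51A1, FDPS and IDI1 rose. They are 4 of the 18 genes that rose among all 14927 (background 0.121%), and 0 of 40 members fell (background 0.134%). FDFT1 had 235 and 214 CPM in Ni_3D+14D, against 71.3 and 88.1 CPM in Ni_3D (1.48, SE 0.21, adjusted p = 0.013 by edgeR). CYP51A1, the lanosterol demethylase, had 101 and 94.2 CPM, against 31.7 and 33.9 CPM in Ni_3D (1.56, SE 0.25, adjusted p = 0.0295 by edgeR). FDPS had 428 and 385 CPM, against 172 and 207 CPM in Ni_3D (1.09, SE 0.18, adjusted p = 0.03 by edgeR). IDI1 had 62.1 and 74.1 CPM, against 28.1 CPM in each Ni_3D library (1.26, SE 0.23, adjusted p = 0.0447 by edgeR). In hg19 FDFT1 lies on chromosome 8 at 11666653 to 11696818 and CYP51A1 on chromosome 7 at 91741463 to 91764059. FDPS lies on chromosome 1 at 155278705 to 155290457 and IDI1 on chromosome 10 at 1085964 to 1095061. FDPS and IDI1 overlap RUSC1-AS1 and IDI2-AS1 on the other strand by 207 and 4178 bases, and the strand setting of the counts is not given in the sources used here.

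All 20 sterol genes had a positive log2 fold change in Ni_3D+14D against Ni_3D (47.5% over all genes), with a median of 1.004, and 19 had both libraries above both Ni_3D libraries (background 27.4%). The largest differences did not pass. At an unadjusted p under 0.05, 24 members were higher and 1 lower (background 6.10% and 6.47%). HMGCS1 had 125 and 136 CPM in Ni_3D+14D, against 31.3 and 22.5 CPM in Ni_3D (2.27, SE 0.48, adjusted p = 0.0773 by edgeR). MSMO1 had 55.9 and 54.1 CPM, against 16.1 and 9.66 CPM (2.08, SE 0.41, adjusted p = 0.0605 by edgeR). INSIG1 had 145 and 135 CPM, against 50.9 and 29.2 CPM (1.79, SE 0.37, adjusted p = 0.0715 by edgeR). DESeq2 called 15 members higher in Ni_3D+14D, and 1.64% of all genes. None of the 4 edgeR calls was kept when any 1 of the 4 libraries was left out. Each such fit leaves 1 library in a group and borrows the spread of other groups. Calls over all genes also became fewer there, to a different degree in each fit, so the lost calls are not particular to the members. The log2 fold changes of the 4 genes then ran from 0.98 to 1.66. The median of the sterol genes was 0.99 to 1.11 in those fits, and 0.99 without both libraries with oestrogen receptor transcripts.

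The fatty acid genes were also above Ni_3D in Ni_3D+14D: all 9 were positive (median 0.51), 7 without overlap, and 0 passed. FASN had 906 and 733 CPM in Ni_3D+14D, against 385 and 532 CPM in Ni_3D (0.82, SE 0.26, adjusted p = 0.226 by edgeR). ABCA1 lay on the other side, with 16.2 and 12.3 CPM in Ni_3D+14D, against 36.5 and 23.5 CPM in Ni_3D (-1.09, SE 0.50, adjusted p = 0.398 by edgeR). Among other pathway genes 0 of 18 SREBP-related genes, 0 of 16 oxidation genes and 0 of 8 lipid droplet genes passed in that comparison. HILPDA differed by -1.64 (SE 0.36, adjusted p = 0.0788 by edgeR). The 7 mesenchymal genes summed to 7285 and 8187 CPM in Ni_3D+14D, against 5570 and 5900 CPM in Ni_3D, with 4 of 7 higher at an unadjusted p under 0.05 (median 0.77). The luminal genes summed to 21.8 and 15.2 CPM, against 211 and 21.4 CPM in Ni_3D, with 4 of 8 tested lower at that p. The part of the mesenchymal genes was not tested, and the median without the luminal libraries is given above.

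**Figure D2:**
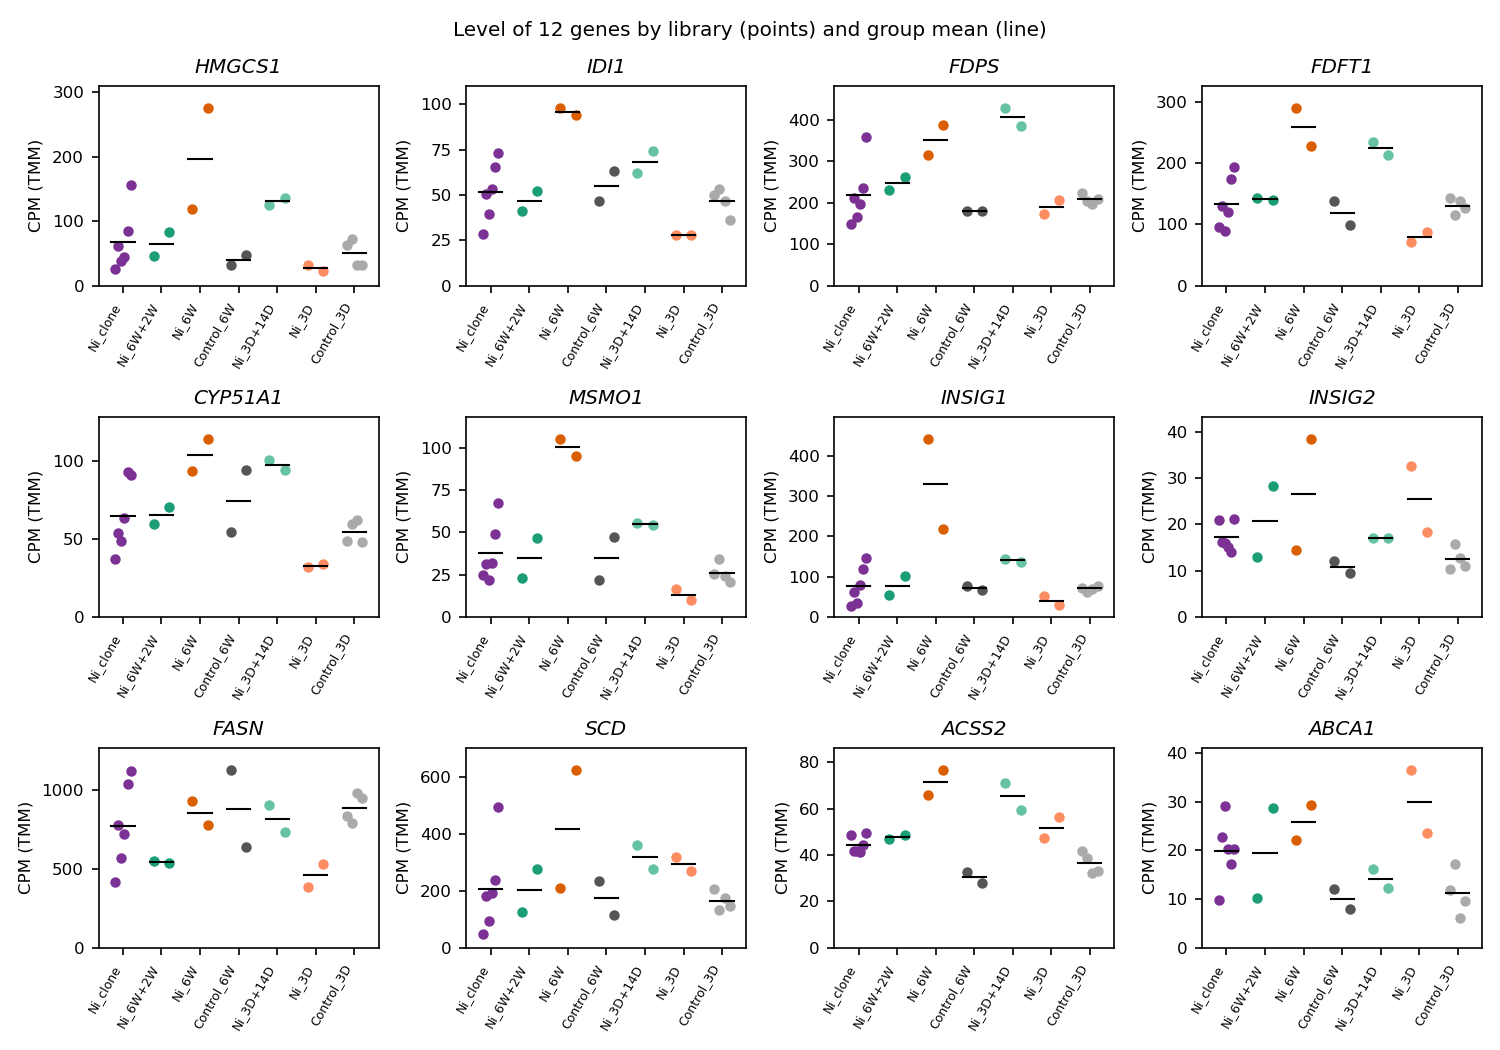
Level (CPM after TMM scaling, linear axes from 0) of 12 genes in each library (points) with group means (lines), for 7 groups from Ni_clone at the left to Control_3D at the right. The group means of HMGCS1, IDI1, FDFT1 and CYP51A1 are lowest in Ni_3D, and INSIG1 has 442 and 218 CPM in Ni_6W, above the 18 other libraries.

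After 6 weeks of nickel 7 of the 40 members rose (background 1.25%) and 0 fell (background 1.21%), among them 4 sterol synthesis genes. All 7 had the same adjusted p of 0.0497 by edgeR, just inside the threshold of 0.05, and SREBF2 (0.0504) and SQLE (0.0531) lay just outside it. INSIG1 had 442 and 218 CPM in Ni_6W, against 76.1 and 66.3 CPM in Control_6W, and rose by 2.22 (SE 0.37). HMGCS1 had 118 and 275 CPM in Ni_6W, against 32.5 and 47.6 CPM in Control_6W, and rose by 2.29 (SE 0.49). Replicate 1 was the higher for INSIG1 and replicate 2 for HMGCS1.

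FDFT1 had 290 and 228 CPM in Ni_6W, against 138 and 99.0 CPM in Control_6W, and rose by 1.14 (SE 0.21). FDPS had 314 and 387 CPM in Ni_6W, against 181 and 180 CPM, and rose by 0.96 (SE 0.18). MVD, the decarboxylase that yields isopentenyl diphosphate, had 99.3 and 66.7 CPM, against 48.4 and 30.6 CPM, and rose by 1.081 (SE 0.25). ACSS2 had 66.1 and 76.7 CPM, against 32.9 and 27.9 CPM, and rose by 1.24 (SE 0.21). NPC1, which exports cholesterol from lysosomes, had 347 and 179 CPM, against 117 and 135 CPM, and rose by 1.07 (SE 0.26). In none of the 7 did the groups overlap. NPC1 shares 309 bases with C18orf8 on the other strand.

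Of the 20 sterol synthesis genes 17 were positive (51.9% over all genes), with a median of 0.60, and 12 had both Ni_6W libraries above both controls (background 24.4%) and 0 both below (background 22.7%). The Ni_6W replicates differed among themselves. LSS, which cyclises oxidosqualene into lanosterol, had 167 and 441 CPM in Ni_6W, against 265 and 189 CPM in Control_6W. LBR, a sterol reductase of the nuclear envelope, had 38.4 and 123 CPM, against 108 and 112 CPM. SCD had 210 and 626 CPM in Ni_6W, against 237 and 116 CPM. In these genes replicate 1 lay within or below the controls and replicate 2 above them. The number of members called followed single libraries: it was 14 without Ni_6W replicate 2, where 18.5% of all genes were called, and 4 without Control_6W replicate 1, where 2.63% were. It was 0 without Ni_6W replicate 1 and 0 without Control_6W replicate 2, where 0% of all genes were called. Without Ni_6W replicate 2 LBR and ACAT2 were called lower. The sterol median stayed between 0.50 and 0.73 in these fits. Without Ni_6W replicate 1 the log2 fold change of INSIG1 was 1.60, of NPC1 0.499 and of MVD 0.75, and without Ni_6W replicate 2 that of HMGCS1 was 1.55. A fit of the compared groups alone called 1 member, INSIG1 (2.20), beside 0.633% of all genes higher. DESeq2 called 15 members higher, and 7.74% of all genes.

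The LXR targets lay above both controls in all 3 cases, and none passed. ABCA1 had 22.3 and 29.3 CPM in Ni_6W, against 12.2 and 8.03 CPM in Control_6W (1.35, SE 0.51, adjusted p = 0.123 by edgeR). ABCG1 had 20.8 and 14.2 CPM, against 3.01 and 5.29 CPM (2.09, SE 0.88, adjusted p = 0.155 by edgeR). MYLIP had 40.3 and 30.0 CPM, against 24.5 and 17.9 CPM (0.74, SE 0.29, adjusted p = 0.135 by edgeR). Of the 18 other SREBP-related genes, 16 oxidation genes, 8 lipid droplet genes and 6 other LXR genes 0 passed in Ni_6W. The 9 epithelial genes summed to 571 and 980 CPM in Ni_6W and to 1413 and 1840 CPM in Control_6W, with 0 calls by edgeR and 3 genes lower at an unadjusted p under 0.05. Of the 7 mesenchymal genes 2 rose, COL1A2 (6.24, SE 1.26) and ZEB1 (4.40, SE 1.03), both at an adjusted p of 0.0497 by edgeR. Their part in the sterol gene result was not tested.

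Whether the response to 6 weeks of nickel differed from that to 3 days was tested as Ni_6W minus Control_6W against Ni_3D minus Control_3D. No gene passed by edgeR (background 0%). Before adjustment 19 members were higher and 0 lower at p under 0.05 (background 4.92% higher and 6.00% lower). DESeq2 called 9 members higher, and 0.546% of all genes. FDFT1 differed by 1.84 (SE 0.28, adjusted p = 0.0571 by edgeR), INSIG1 by 3.02 (SE 0.49, adjusted p = 0.076 by edgeR) and IDI1 by 1.53 (SE 0.31, adjusted p = 0.159 by edgeR). The median over the 20 sterol genes was 1.06, beside 0.04 over all genes. With 1 library left out that median ran from 0.863 to 1.212.

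In Ni_6W+2W, cells kept without nickel after the 6-week exposure, the summed sterol synthesis level of 1560 and 1801 CPM compared with 2114 and 2788 CPM in Ni_6W and 1598 and 1462 CPM in Control_6W. Against Control_6W no gene passed by edgeR (background 0%), 2 members were higher and 1 lower at p under 0.05 before adjustment (background 6.87% and 6.24%). DESeq2 called 0 members, and 2.34% of all genes. The sterol median was 0.13, and 6 of 20 genes lay above both controls (background 23.8%) and 1 below (background 20.4%). The smallest p-values belonged to ACSS2, with 46.9 and 48.9 CPM in Ni_6W+2W, against 32.9 and 27.9 CPM in Control_6W (0.65, SE 0.20, adjusted p = 0.261 by edgeR). FASN had 549 and 536 CPM, against 1127 and 636 CPM in Control_6W (-0.70, SE 0.26, adjusted p = 0.295 by edgeR). Without Control_6W replicate 1 FASN differed by -0.235, and without replicate 2 by -1.06. FDPS had 232 and 261 CPM, against 181 and 180 CPM (0.45, SE 0.18, adjusted p = 0.315 by edgeR).

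Against Ni_6W 0 of the 14927 genes passed by edgeR, while 15 members were lower and 0 higher at p under 0.05 before adjustment (background 3.97% and 2.61%). DESeq2 called 2 members lower, and 0.0336% of all genes. The Ni_6W libraries also enter the comparison with Control_6W. INSIG1 had 52.9 and 102 CPM in Ni_6W+2W, against 442 and 218 CPM in Ni_6W (-2.10, SE 0.37, adjusted p = 0.733 by edgeR). IDI1 had 41.3 and 52.0 CPM, against 97.9 and 94.0 CPM in Ni_6W (-1.05, SE 0.23, adjusted p = 0.733 by edgeR). FDFT1 had 143 and 141 CPM, against 290 and 228 CPM (-0.88, SE 0.21, adjusted p = 0.733 by edgeR). None of these overlapped. Of the 20 sterol genes 11 lay below both Ni_6W libraries (background 12.5%) and 1 above (background 13.6%), with a median of -0.485. Without Ni_6W replicate 2 edgeR called 7 members, INSIG1, IDI1, FDFT1, MVD and NPC1 lower and LBR and ACAT2 higher, beside 7.40% of all genes. The 9 epithelial genes summed to 2323 and 847 CPM in Ni_6W+2W, against 571 and 980 CPM in Ni_6W, with 4 of 9 higher at an unadjusted p under 0.05. Their part in the result was not tested. Ni_6W+2W replicate 2 and Ni_6W replicate 2 had the lowest chi-square per degree of freedom of all pairs of libraries, 9.33, well above sampling noise.

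The later cells thus stood below the exposed cells after the long exposure and above them after the short one, in comparisons that share no library. Tested as Ni_6W+2W minus Ni_6W against Ni_3D+14D minus Ni_3D, 9 of 14927 genes were called lower (background 0.0603%) and 6 of these were members. There was 1 gene called higher (background 0.00670%), and 0 of 40 members. FDFT1 fell by 2.36 on the log2 scale in this difference (SE 0.30, adjusted p = 0.0188 by edgeR), INSIG1 by 3.90 (SE 0.52, adjusted p = 0.0213 by edgeR) and IDI1 by 2.31 (SE 0.33, adjusted p = 0.0213 by edgeR). FDPS fell by 1.60 (SE 0.25), CYP51A1 by 2.24 (SE 0.35) and MSMO1 by 3.62 (SE 0.57), each at an adjusted p of 0.0397 by edgeR. The genes just outside the threshold were DHCR7, the last reductase of the pathway (-1.85, adjusted p = 0.0631 by edgeR), and HMGCS1 (-3.89, adjusted p = 0.0822 by edgeR). The sterol median was -1.38, with 18 of 20 negative (50.1% over all genes), and all 9 fatty acid genes were negative (median -0.90) without a call.

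These 6 calls depended on the libraries and on the spread shared by the fit. A fit of the 4 groups alone called 0 members, and 0% of all genes. The fit without both libraries with oestrogen receptor transcripts, where Ni_3D keeps 1 library, called no member and hardly any gene. Its sterol median was -1.49. With 1 library left out the number called was 10 without Ni_6W replicate 2 (0.425% of all genes called lower) and 3 without Ni_6W replicate 1 (0.0454%). It was 1 without Ni_3D replicate 1 (0.0261%) and 1 without Ni_6W+2W replicate 2 (0.00644%). No member was called without Ni_3D replicate 2, either Ni_3D+14D replicate or Ni_6W+2W replicate 1, and hardly any gene was called there. The sterol median then ran from -1.65 to -1.22, and INSIG1 from -4.45 without Ni_6W+2W replicate 2 to -3.28 without Ni_6W replicate 1. MSMO1 was -4.24 without Ni_6W+2W replicate 2. DESeq2 called 12 members lower, and 0.196% of all genes. The times after exposure, labelled 2 weeks and 14 days, are of the same length. The labels give no medium for the second, so exposure length and handling cannot be told apart.

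**Figure D3:**
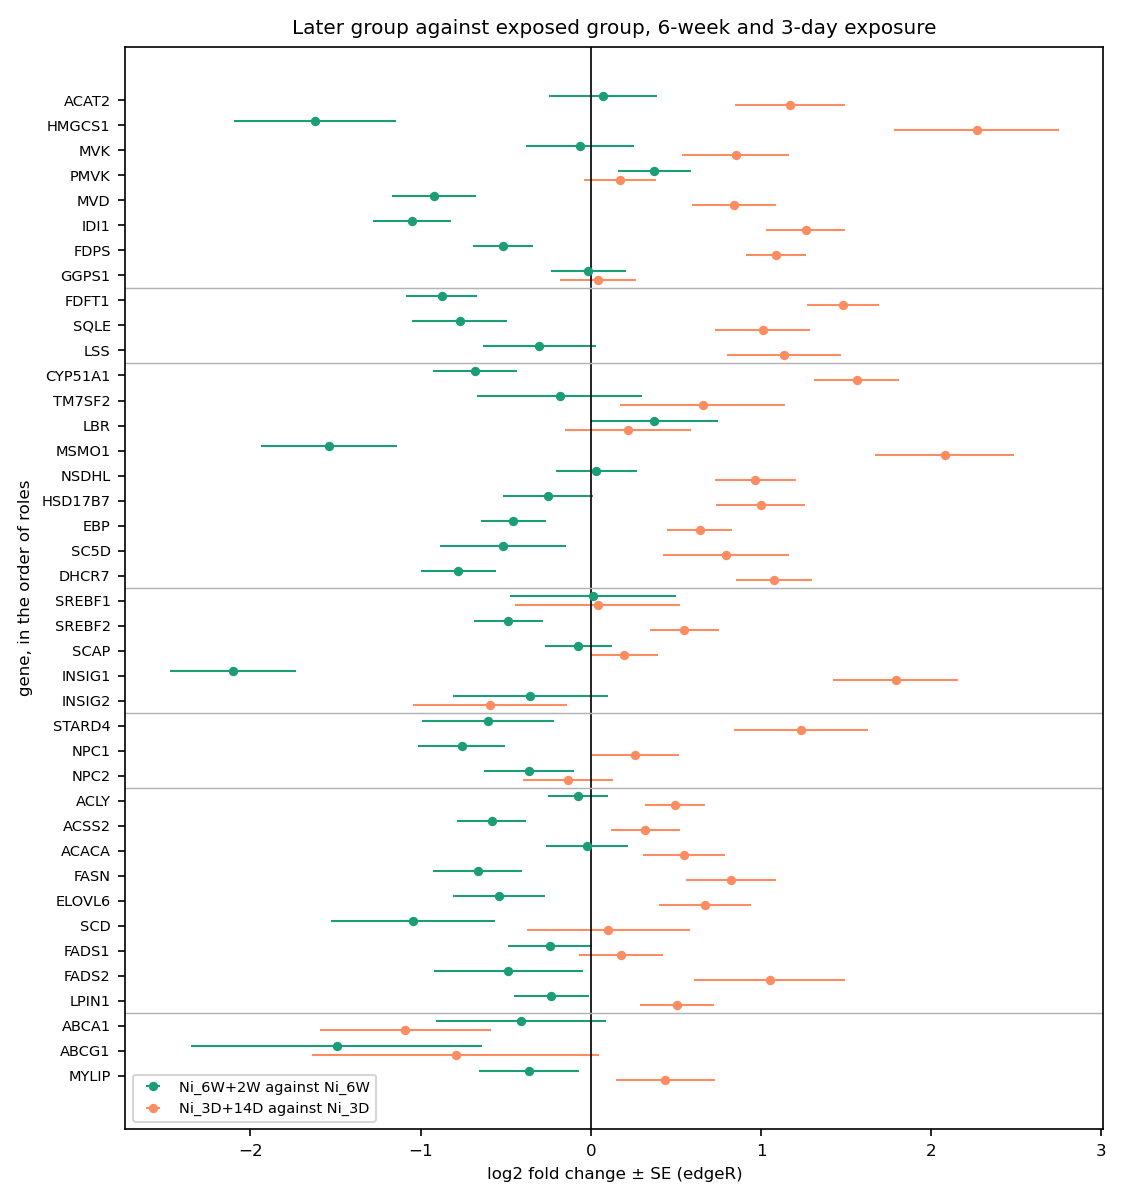
Log2 fold change with its standard error (edgeR) for each of the 40 genes, in order of role, in Ni_6W+2W against Ni_6W (green) and Ni_3D+14D against Ni_3D (orange). Most sterol synthesis genes lie left of 0 in green and right of 0 in orange, for example INSIG1 at -2.10 and 1.79.

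Set against their own controls, Ni_6W+2W and Ni_3D+14D differed for 0 members by edgeR (background 0%), with 5 members lower at p under 0.05 before adjustment (background 1.10%). DESeq2 called 0 members, and 0.0134% of all genes. CYP51A1 differed by -1.03 (SE 0.33) and DHCR7 by -0.84 (SE 0.29), both at an adjusted p of 0.9999 by edgeR. The controls of the long and short exposures themselves differed for 0 members by edgeR (background 0%). DESeq2 also called 0 members there, and 0.349% of all genes. At an unadjusted p under 0.05 there was 1 member higher (background 3.85%) and 0 lower (background 4.46%), STARD4, a carrier of sterol between membranes. STARD4 had 31.1 and 73.1 CPM in Control_6W, against 21.1, 26.5, 29.5 and 23.1 CPM in Control_3D (1.04, SE 0.33, adjusted p = 0.577 by edgeR), and 0.31 without Control_6W replicate 2.

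Among the clones, 1 member passed against Control_6W. ACSS2 had between 41.3 and 49.6 CPM in the 6 clones (median of 43.1 CPM), against 32.9 and 27.9 CPM in Control_6W, and all clones lay above both controls. It rose by 0.57 (SE 0.14, adjusted p = 0.0431 by edgeR over 14172 genes). A share of 1 of 40 is no higher than the background of 2.89%, and 0 of 40 members fell (background 2.38%). The call was lost without Control_6W replicate 2 (0.45, adjusted p = 0.3 by edgeR) and without any 1 of the 6 clones (adjusted p = 0.0507 to 0.0766 by edgeR). Without clone 1 ABCA1 was called instead (1.13, adjusted p = 0.0356 by edgeR). INSIG2 had 14.1 to 21.2 CPM in the clones, against 12.1 and 9.36 CPM in Control_6W, without overlap (0.70, SE 0.22, adjusted p = 0.0837 by edgeR). ABCA1 had 9.91 to 29.2 CPM, against 12.2 and 8.03 CPM, and its groups overlapped (0.99, SE 0.36, adjusted p = 0.12 by edgeR).

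Against Ni_6W+2W 0 members differed in the clones by edgeR (background 0.0140% in each direction), with 1 lower at p under 0.05 before adjustment (background 3.24%). DESeq2 called 0 members, and 0.428% of all genes. The smallest p was that of NPC1 (-0.28, SE 0.12, adjusted p = 0.755 by edgeR). Outside the members, ACADVL, the very long-chain acyl-CoA dehydrogenase, fell in the clones against Control_6W (-0.83, SE 0.21, adjusted p = 0.0466 by edgeR), as 1 of 16 oxidation genes. Of the 7 mesenchymal genes ZEB1 rose in the clones (3.71, SE 0.40, adjusted p = 0.00298 by edgeR).

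The clones spread widely in these genes. Their summed sterol synthesis levels were 1100, 1664, 1240, 1624, 1975 and 2577 CPM in clones 1 to 6, against 1598 and 1462 CPM in Control_6W. Clone 1 was the lowest clone in 12 of 20 sterol synthesis genes (background 25.0%) and clone 6 the highest in 16 (background 18.8%). Over all 40 members these counts were 24 and 27. The comparison of single clones was chosen after their values were seen, each clone has 1 library, and clone and library cannot be told apart.

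SCD ran from 49.8 CPM in clone 1 to 495 CPM in clone 6, a 9.94-fold range. HMGCS1 ran from 25.3 to 156 CPM (6.19-fold), INSIG1 from 26.1 to 146 CPM (5.60-fold) and FADS2, the first desaturase of polyunsaturated fatty acids, from 129 to 586 CPM (4.53-fold), with the same clones at the ends. SREBF2 was 225 CPM in clone 1 and 698 CPM in clone 6. The SD of log2 CPM over the clones had a median of 0.44 in the sterol synthesis genes and 0.45 in the fatty acid genes, beside 0.24 over all genes tested. It was 0.16 in the 16 oxidation genes and 0.24 in the 18 other SREBP-related genes, but 0.52 in the LXR targets, 0.42 in the mesenchymal and 0.72 in the epithelial genes. ACSS2, which passed against the controls, varied least of the fatty acid genes (SD 0.12).

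**Figure D4:**
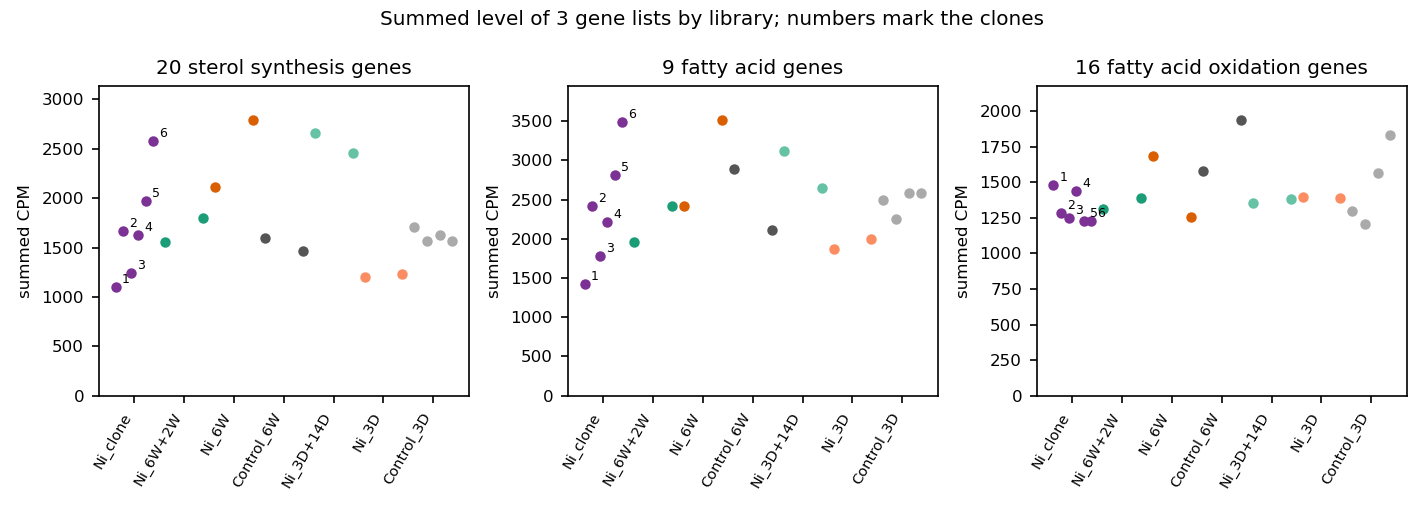
Summed CPM of 20 sterol synthesis, 9 fatty acid and 16 fatty acid oxidation genes in each library by group, with clone numbers beside the points. The clones spread from 1100 to 2577 CPM for sterol genes and from 1228 to 1481 CPM for oxidation genes.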

How the data were processed

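RNA of BEAS-2B cells was read as 20 libraries in 7 groups. The deposited files give, per library, read counts of 25411 genes and the authors' RPKM values. The submitters' processing notes name STAR 2.4, DESeq, DESeq2 and the builds hg19 and GRCh37. For the counting tool and its strand setting nothing is given in the sources used here. Coordinates of genes are those of the deposited files.

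The counts were tested with edgeR 4.0.16 (robust quasi-likelihood F test, TMM scaling, Benjamini-Hochberg over all genes tested, threshold 0.05) after filterByExpr had dropped low genes (count minimum 10, total minimum 15). The 14 libraries that are not clones entered 1 fit with a mean per group (14927 genes, biological coefficient of variation 29.7%), so groups of 2 borrowed the spread of the others. The 6 clones were fitted with Control_6W (14172 genes, 24.7%) or with Ni_6W+2W (14273 genes, 24.8%). The SE of a log2 fold change is its size over the root of F. Levels are CPM with TMM factors over the 20 libraries, and RPKM served only to set genes side by side. Totals differed by 10.3-fold, so the shallow libraries carry more counting error. Files were joined by RefSeq identifier, and 28 symbols that a spreadsheet had altered in 2 libraries were taken from the other files. The 40 members and all gene lists were chosen with earlier results of these data known. Members named with a test are those called in a comparison or, where fewer than 3 were called, those of smallest p up to 3, and the others given with a test were chosen after their values were seen. Alternatives were RLE size factors, DESeq2 1.42.0, a replicate block, no filter on low counts, other sets of libraries, and each library left out. The script was tested on simulated data. R 4.3.3, limma 3.58.1, Python 3.11.15, pandas 2.3.3 and matplotlib 3.10.9 were used. The authors' tables of comparisons were not used here. A result on a gene outside the members is not reported here.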

Additional observations from a re-analysis of the deposited data

Results flagged for a closer look

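Of 80 sets of values (the 40 members in the 6 clones and in the 4 Control_3D libraries) 5 held a library far from the rest of its group by Dixon's criterion, and chance gives about 1 in 20. In clone 6 PMVK, phosphomevalonate kinase, had 53.3 CPM (nearest clone 43.1 CPM), MVD had 103 CPM (nearest 54.0 CPM) and HSD17B7, a sterol ketoreductase, had 14.2 CPM (nearest 10.1 CPM). In clone 3 TM7SF2, a sterol reductase, had 17.6 CPM (nearest 30.0 CPM). In Control_3D replicate 2 SREBF2 had 318 CPM (nearest 374 CPM).

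In 6 members the difference of the later from the exposed cells was not alike after the long and the short exposure, by a test of the difference itself (Ni_6W+2W minus Ni_6W against Ni_3D+14D minus Ni_3D, log2 scale). The values were -3.90 for INSIG1, -3.62 for MSMO1, -2.36 for FDFT1, -2.31 for IDI1, -2.24 for CYP51A1 and -1.60 for FDPS.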

How the results depend on the processing

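The number of members called depended on tool and libraries. In Ni_3D against Control_3D (1 called) it was 8 with DESeq2 (13.1% of all genes called) and 2 with RLE size factors (4.27%). A fit of these groups alone gave 4 (4.66%). Against Control_3D replicates 3 and 4 it was 3 (7.95%), and against replicates 1 and 2 it was 0 (0.813%). In Ni_3D+14D against Control_3D (0 called) it was 3 with DESeq2 (0.107%) and 1 against replicates 3 and 4 (0.758%). In Ni_3D+14D against Ni_3D (4 called) it was 15 with DESeq2 (3.15%) and 9 with these groups alone (1.63%). In Ni_6W against Control_6W (7 called) it was 15 with DESeq2 (14.2%) and 1 with these groups alone (0.808%). In Ni_6W+2W against Ni_6W (0 called) DESeq2 gave 2 (0.0470%). In Ni_clone against Control_6W (1 called) it was 3 with DESeq2 (13.9%), 0 without a filter (3.42%) and 0 with all 20 libraries (3.11%). For Ni_6W minus Control_6W against Ni_3D minus Control_3D (0 called) it was 9 with DESeq2 (1.38%), 2 without a filter (0.0463%) and 4 against replicates 1 and 2 (0.679%). For Ni_6W+2W minus Ni_6W against Ni_3D+14D minus Ni_3D (6 called) it was 12 with DESeq2 (0.298%) and 0 with these groups alone (0%). Without both libraries with oestrogen receptor transcripts Ni_3D keeps 1 library. No member was called then in the comparisons that use them, and few genes of any kind were. The cause was not tested.

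With 1 library left out the counts ran from 0 to 1 in Ni_3D, 0 to 0 in Ni_3D+14D against Ni_3D, 0 to 14 in Ni_6W, 0 to 7 in Ni_6W+2W against Ni_6W, 0 to 1 in the clones against Control_6W, and 0 to 5 and 0 to 10 in those differences. CYP51A1 in Control_6W against Control_3D ran from -0.005 to 0.784 (log2), and the sterol median of the clones against Ni_6W+2W from -0.118 (without clone 6) to 0.187, with -0.075 without Ni_6W+2W replicate 1.

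Whether replicate numbers pair libraries across groups is not known. The differences of replicate 1 from replicate 2 correlated between groups at -0.321 (Ni_3D with Ni_6W+2W) to 0.393 (Control_3D with Ni_3D). Replicate 1 of Control_3D and of Ni_3D also held the oestrogen receptor transcripts. With the replicate block the calls were 0 in Ni_3D (0.616% of all genes called), 4 in Ni_3D+14D against Ni_3D (0.221%) and 8 in Ni_6W (5.10%). They were 0 in the clones against Control_6W (0.148%) and against Ni_6W+2W (0.0841%). For Ni_6W minus Control_6W against Ni_3D minus Control_3D there were 3 (0.469%). For Ni_6W+2W minus Ni_6W against Ni_3D+14D minus Ni_3D there were 0 (0%). In these block fits clones 3 to 6, and Control_3D replicates 3 and 4, have a number that no other group in their fit holds. The block takes up each of them, so the comparisons rest on replicates 1 and 2 of these groups. The sterol medians were then -0.072 for clones 1 and 2 against Control_6W and -0.285 for them against Ni_6W+2W.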
